A study of Mus musculus with 6 samples.

Results

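The laminin chain genes Lama1, Lama2, Lama3, Lama4, Lama5, Lamb1, Lamb2, Lamb3 and Lamc1 are described here by their accessible chromatin. They are 9 of the 21887 protein-coding genes placed on the chromosomes of the RefSeq annotation of GRCm38.p6. Each gene was taken with 50 kb on either side, and the peaks with a summit in these 9 windows were collected: 120 of the 106132 peaks of the wildtype (WT) list and 121 of the 98072 peaks of the Lap2alpha knockout (KO) list. The assay was ATAC-seq on cultured mouse dermal fibroblasts: a transposase, Tn5, cuts open DNA and adds sequencing adapters there. There were 3 WT libraries and 3 libraries from cells without Lap2alpha, a splice form of the Tmpo gene product that binds A-type lamins inside the nucleus, and the series title asks how its loss reorganizes chromatin. Both groups were grown in the same medium with fetal calf serum. The sources used here do not give the strain, the age, the number of animals or clones, or how the cells were made into cultures. The authors deposited 1 peak list per genotype, made over its 3 libraries together. There is therefore no spread between libraries, no difference between genotypes was tested, and the read depth of the libraries is unknown. The annotation gives gene spans without exons, so exon, intron and UTR were not told apart.

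Laminins are large cross-shaped proteins of the basement membrane, the sheet of matrix that underlies epithelia and surrounds muscle fibres, nerves, fat cells and vessels. Each laminin joins an alpha, a beta and a gamma chain. The alpha chain binds the cell through integrins and dystroglycan, and the short arms of the chains link laminins into a network. In skin, the epidermis rests on a laminin with chains from Lama3 and Lamb3, while dermal cells, vessels and nerves use others, among them those from Lama2, Lama4, Lama5, Lamb1, Lamb2 and Lamc1.

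Peak numbers over the 9 windows were nearly equal, but single chains differed in opposite directions. A peak with 1 bp or more in common with any peak of the other list was called shared, and otherwise WT-only or KO-only. Of the 120 WT peaks, 25 were WT-only (20.8%), against 20.4% of the whole WT list. Of the 121 KO peaks, 29 were KO-only (24.0%), against 13.4% of the whole KO list. Lama4 alone held 11 of these 29 peaks and Lama2 alone held 12 of the 25. Without Lama4, 18 KO-only peaks remained (17.6% of the KO peaks), and without Lama2, 13 WT-only peaks (14.4% of the WT peaks). More KO-only than WT-only peaks were found at 5 of the 9 genes, against 25.7% of the 19550 protein-coding genes with any peak in such a window. At Lama5, Lamb1 and Lamb2 the excess was a single peak. With a summit −log10 p of at least 8, the difference was -1 at Lama5 and 0 at Lamb1 and Lamb2. More WT-only peaks were found at 3, against 52.2%, and Lama3 had equal numbers, against 22.1%. In a culture of many cells, a site open in fewer cells and a site less open in each cell cannot be told apart.

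**Figure D1:**
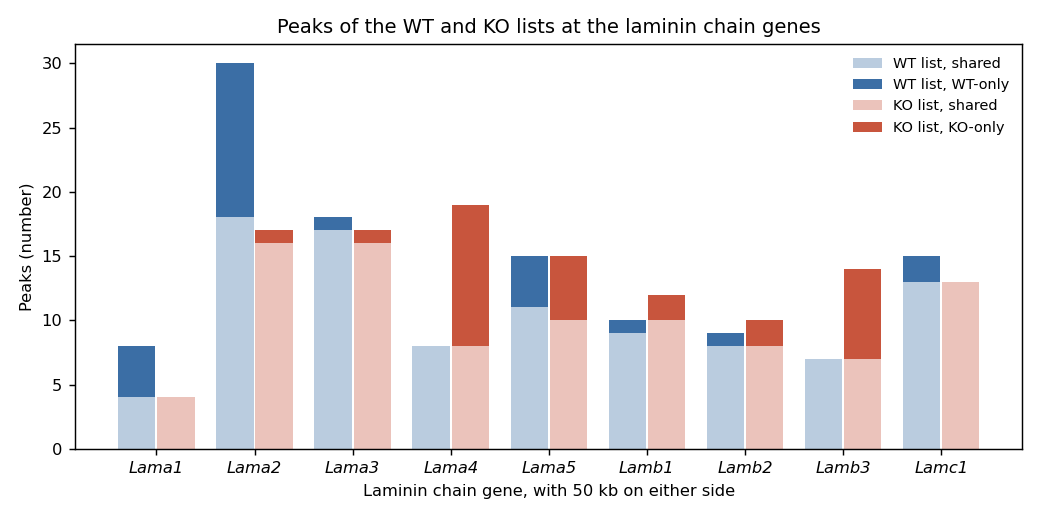
Number of peaks (vertical axis) with a summit in each laminin chain gene or within 50 kb of it, for the WT list (blue) and the KO list (red); pale parts are shared and dark parts are genotype-only peaks. Lama4 had 8 WT and 19 KO peaks and Lama2 had 30 WT and 17 KO peaks.

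Genotype-only peaks at laminin genes were weak, as they were in the whole lists. Signal is given as a percentile within its own list, where 100 is the strongest peak, because the deposited signal carries no scaling between the lists. The median percentile was 16.6 for WT-only peaks and 14.2 for KO-only peaks of the 9 windows, against 57.1 and 60.2 for shared peaks. In the whole lists these medians were 17.8 and 16.5 for genotype-only and 59.3 and 55.9 for shared peaks. Among peaks in the upper 50% by signal, none was WT-only and 4 were KO-only, all of them at Lama4. In the whole lists, 3.49% of WT and 2.41% of KO peaks of that class were genotype-only.

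Gene ends with a peak within 1 kb were found in both lists at Lamb1, Lamb2 and Lamc1, in the KO list only at Lama4, and in neither list at the other 5 genes. Among all protein-coding genes, 56.1% had such a peak in both lists and 40.2% in neither, while 2.47% had it only in the WT list and 1.31% only in the KO list. Lamb1, Lamb2 and Lamc1 encode the beta and gamma chains that most laminins outside the epidermis contain. With 2 kb in place of 1 kb, Lama3 and Lama5 had a peak in both lists and Lamb3 in KO only. These peaks were at the high-coordinate end of each gene. That of Lama3 lay inside the neighbour Ttc39c. That of Lama5 was on the side of the transcription start. That of Lamb3, a plus-strand gene, was at the end away from the start, at percentile 3.38. An end without a called peak is not shown to be closed.

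Promoter sequences were taken from RefSeq (GRCm38.p6), which gave 6 transcription starts for 5 members in the table used here (Lama2, Lama5, Lamb1, Lamb2 and Lamb3). The 250 bases before the start are printed for Lamb1 and Lamb2, whose starts lay inside a peak of both lists. They are also printed for Lama2, whose start had no peak in either list. These starts differ from the ends of the gene spans used here. The Lama2 stretch lies almost wholly inside its gene span, which ends at 27617191. The Lamb1 and Lamb2 stretches reach into spans that begin at 31265146 and 108479847. Lamb1 and Lamb2 are on the plus strand and Lama2 on the minus strand, and each sequence reads 5′ to 3′ in the direction of the gene. Capitals mark matches to the motifs named below.
Lamb1, chr12:31265043-31265292: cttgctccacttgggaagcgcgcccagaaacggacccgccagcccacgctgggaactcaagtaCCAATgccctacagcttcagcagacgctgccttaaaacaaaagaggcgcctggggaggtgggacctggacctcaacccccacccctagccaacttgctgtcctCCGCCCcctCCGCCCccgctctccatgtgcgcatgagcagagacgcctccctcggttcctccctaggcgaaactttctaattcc
Lamb2, chr9:108479612-108479861: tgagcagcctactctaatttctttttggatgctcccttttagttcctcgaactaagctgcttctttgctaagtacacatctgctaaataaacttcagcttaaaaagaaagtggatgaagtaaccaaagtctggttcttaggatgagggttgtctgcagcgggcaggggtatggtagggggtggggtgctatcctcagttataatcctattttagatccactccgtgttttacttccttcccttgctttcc
Lama2, chr10:27616943-27617192: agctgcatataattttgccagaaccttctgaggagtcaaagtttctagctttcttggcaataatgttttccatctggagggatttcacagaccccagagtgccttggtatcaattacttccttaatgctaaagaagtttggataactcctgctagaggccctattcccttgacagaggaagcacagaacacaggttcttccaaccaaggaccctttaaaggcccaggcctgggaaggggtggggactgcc

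Base composition differed between these stretches. The Lamb1 stretch was 62% G or C with 14 CG dinucleotides, the Lamb2 stretch 43.6% with 3, and the Lama2 stretch 47.2% with 0, beside medians of 52.4% and 6 over the 32851 promoters of the table. Over the full 300 bases that the table gives around each start, 39% of those promoters were overlapped by a peak in both lists and 58.3% in neither, with 1.88% covered only in the WT list and 0.813% only in the KO list. Motifs were searched on both strands. Lamb1 held 2 matches to the GC box GGGCGG, both read on the opposite strand as CCGCCC, and 1 to CCAAT. Of all promoters, 32.7% held GGGCGG and 33.8% held CCAAT in their 250 bases. The motifs for AP-1 (TGANTCA, in 6.75% of promoters), TEAD (GGAATG, 12.6%), the TATA box (TATAAA, 12.4%), RUNX (TGTGGT, 14.0%) and NF1 (its full palindrome, 0.0365%) gave no match in the printed stretches, and no matches overlapped one another. The Lamb2 and Lama2 stretches held no match to any of the motifs. Neither the Lama5 start nor the 2 Lamb3 starts lay in a peak, although the 250 bases before the Lama5 start were the richest in G or C of the 6 starts in the table, at 72.4% with 19 CG dinucleotides and 4 matches to GGGCGG. At Lama5 the nearest summit was 1923 bp away in both lists, at percentiles 81.6 in WT and 77.9 in KO. The 2 Lamb3 starts, at 193301994 and 193302243, lay inside the gene span used here, which begins at 193294353.

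Lama4 had the largest excess of KO-only peaks among the 9 genes. It encodes the alpha4 chain, a short alpha chain of vessel walls, fat, muscle and other mesenchymal tissue, and spans chromosome 10 from 38965515 to 39110188. The WT list held 8 peaks in its window and the KO list 19. All 8 WT peaks were shared, whereas 11 KO peaks were KO-only, and 9 of these 11 lay inside the gene. Of the 19550 genes with a peak in the window, 29 (0.148%) had an excess of KO-only peaks this large or larger.

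A KO-only peak from 38965437 to 38966251 covered the low-coordinate end of Lama4, with its summit 36 bp inside the gene, a width of 815 bp and a signal percentile of 69.6. Beside it, outside the gene, lay a weak KO-only peak from 38964936 to 38965214 at percentile 5.39. Further KO-only peaks in the upper 50% by signal ran from 38945481 to 38946438 outside the gene, at percentile 69.6, and inside it from 38981018 to 38981402 at 54.9 and from 38984347 to 38985208 at 68.0. The other 6 were at percentiles of 8.40 to 41.9. The end of Lama4 and the adjoining part of the gene thus held several peaks of middle rank in the KO list and no WT peak.

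These peaks followed each other without interruption. From 38913144 to 38993305, a stretch of 80.2 kb that begins just outside the window, 8 KO-only peaks in a row were called with no WT or shared peak between them. Of 10030 such runs of KO-only peaks in the genome, counting single peaks as runs, 29 (0.289%) had 8 or more peaks. The run ended next to the strongest KO peak of the gene, which was shared. That peak ran from 38993604 to 38995348 in KO, at percentile 94.3, and its WT partner had a width of 998 bp against 1745 bp and percentile 79.8.

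Shared peaks inside Lama4 were also wider in KO. All 5 were wider, with KO to WT width ratios of 1.19 to 3.63 and a median of 1.91. The narrowest WT peak, with its summit at 39044838, was 164 bp wide at percentile 0.865, and its KO partner was 596 bp wide at percentile 79.6. A neighbour with its WT summit at 39040190 was 187 bp wide at percentile 14.7 in WT and 506 bp wide at percentile 64.0 in KO. Ranks in lists of different length do not by themselves show a change. Summits stayed within 94 bp of each other in these 5 pairs. Of the 75840 pairs of the whole lists in which each peak had a single partner, 47% were wider in KO. In the 1 Mb on either side of the Lama4 window 26 of 48 were, with a median ratio of 1.01.

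Beyond the high-coordinate end of Lama4 the lists looked different. Here lie Fam229b, the epsilon-tubulin gene Tube1 and the matricellular protein gene Ccn6, and 3 shared peaks were called with no genotype-only peak. A pair at the adjoining ends of Fam229b and Tube1 was 1233 bp wide in WT and 1085 bp in KO, at percentiles 86.8 and 83.7. A pair inside Ccn6 was 723 bp wide in WT and 419 bp in KO, at percentiles 70.1 and 41.0. The third pair, inside Fam229b, was 249 bp wide in WT and 391 bp in KO.

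Lama2, on the same chromosome, had the opposite pattern of peak numbers. It encodes the alpha2 chain of the laminin around muscle fibres and peripheral nerve, whose loss causes muscular dystrophy in mice. The gene is the longest of the 9, at 635907 bp from 26981285 to 27617191, and its window held 30 WT and 17 KO peaks. Of the WT peaks 12 were WT-only, and of the KO peaks 1 was KO-only. Of the 19550 genes, 91 (0.465%) had an excess of WT-only peaks this large or larger. Windows of long genes hold more peaks, so these ranks over all genes also follow gene length.

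WT-only peaks of Lama2 lay mainly towards its transcription start. The gene is read from high to low coordinates, with its start at 27616942. In the low-coordinate part up to the midpoint of the gene, 1 of 13 WT peaks was WT-only and 1 of 11 KO peaks was KO-only. Between the midpoint and the high-coordinate end, 9 of 11 WT peaks were WT-only and the KO list held 2 peaks, both shared. A cluster of 4 WT-only peaks ran from 27590552 to 27595962, with summits 21284 to 26458 bp from the high-coordinate end and percentiles of 26.2 to 49.5. The strongest of these, from 27591514 to 27592163, was 650 bp wide at percentile 49.5. Another WT-only peak lay 15888 bp outside that end, from 27632978 to 27633416 at percentile 42.8.

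These 5 peaks and a further one formed a run of 6 WT-only peaks from 27533305 to 27633416, with no KO or shared peak between them. Of 14784 runs of WT-only peaks in the genome, 214 (1.45%) had 6 or more peaks. The nearest summit to the Lama2 start was 16137 bp away in WT and 37438 bp away in KO. No WT-only peak of Lama2 reached the upper 50% by signal, unlike 4 of the KO-only peaks of Lama4. That difference between the 2 genes was not tested.

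Shared peaks of Lama2 were not narrower in KO, but most ranked lower there. Of 14 shared pairs in which each peak had a single partner, 8 were wider in KO and 6 in WT, with a median ratio of 1.06. By signal percentile, 2 of the 14 ranked higher in KO, against 30875 of the 75840 such pairs of the whole lists. Some pairs that ranked lower in KO were near ties, such as 81.03 in WT against 80.97 in KO, and 70.6 against 70.1. The strongest WT peak, from 26995464 to 26996876, was at percentile 87.3 in WT and its partner at 86.5 in KO. The strongest KO peak, from 27117041 to 27118414 at percentile 87.3, overlapped 2 WT peaks at percentiles 52.9 and 83.4. A pair with its WT summit at 27495199 was at percentile 37.2 in WT and 7.49 in KO, and a pair at 27378442 was 673 bp wide in WT and 346 bp in KO. Strong sites of the gene were therefore called in both lists, and the sites called in WT alone were weaker ones.

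**Figure D2:**
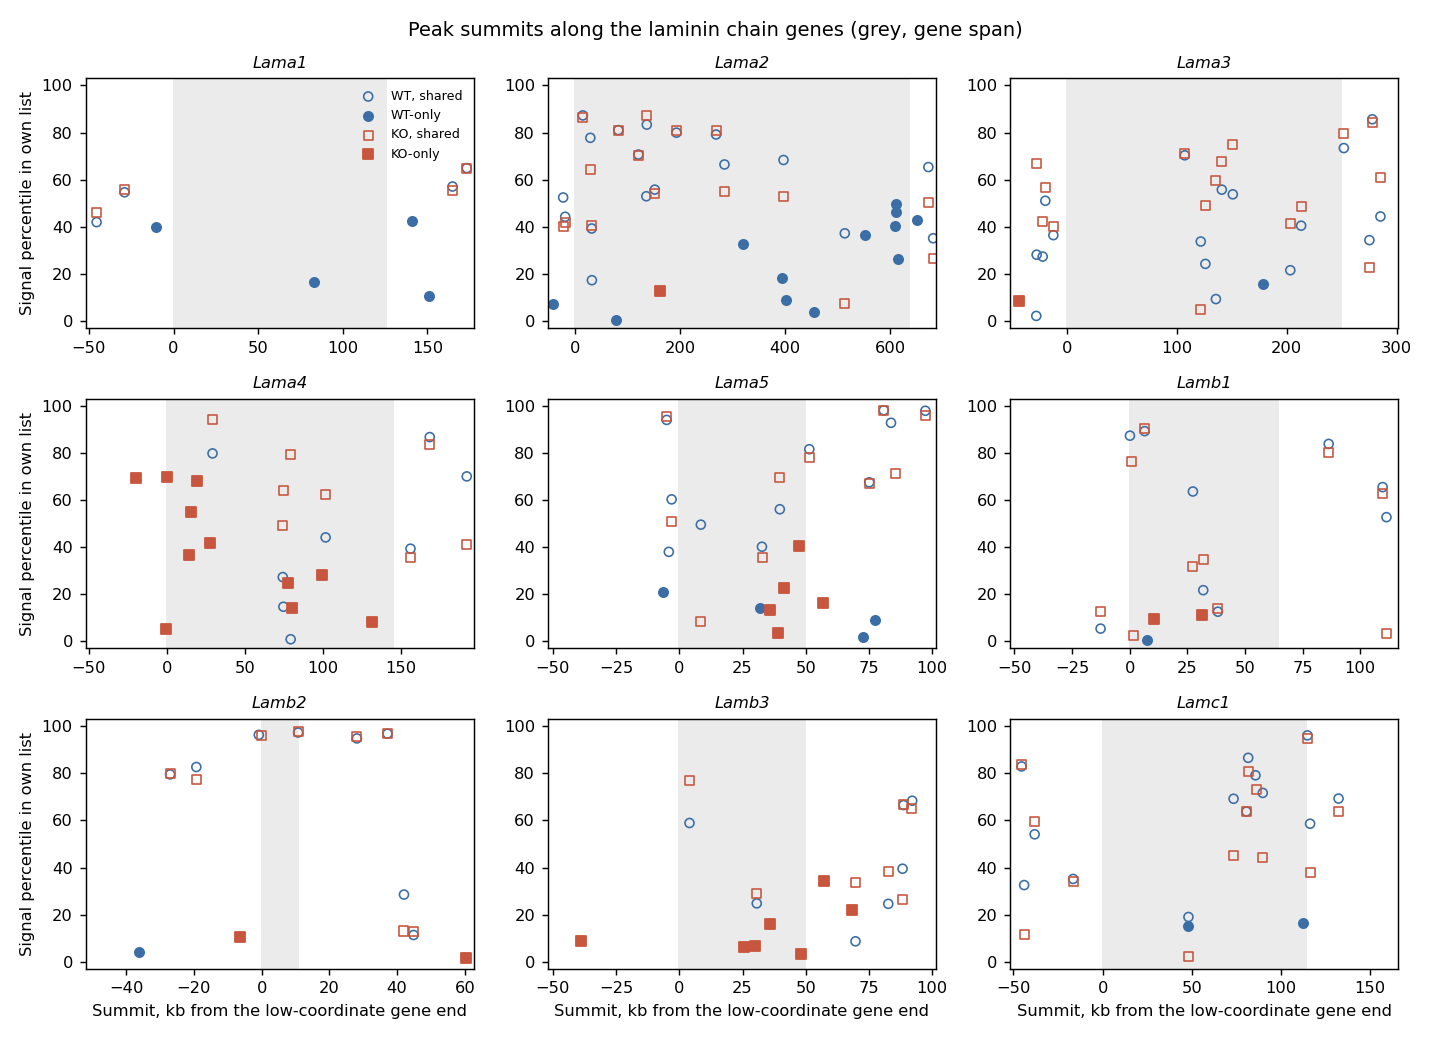
Signal percentile of each peak within its own list (vertical axis) against the distance of its summit from the low-coordinate gene end in kb (horizontal axis), 1 panel per gene with the gene span in grey; circles are WT and squares KO peaks, open where shared and filled where genotype-only. Filled squares crowd at the low-coordinate end of Lama4, and filled circles lie in the upper part of the span of Lama2.

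Lama3 had equal numbers of genotype-only peaks, but its shared peaks were wider in KO. It encodes the alpha3 chain of the epidermal laminin and spans chromosome 18 from 12333417 to 12583013. The window held 18 WT and 17 KO peaks, with 1 WT-only peak inside the gene at percentile 15.6 and 1 KO-only peak in the flank, inside Ankrd29, at percentile 8.62. Of 15 pairs, 13 were wider in KO, with a median ratio of 1.43. In the whole lists, 47% of 75840 such pairs were wider in KO. Inside the gene 7 of 8 pairs were wider in KO, with a median ratio of 1.76. The widest change was at a WT summit at 12468956, with 162 bp at percentile 9.26 in WT and 467 bp at percentile 59.7 in KO. The next, at 12484361, had 429 bp at percentile 53.8 in WT and 1031 bp at percentile 74.8 in KO. A weak WT pair at percentiles 2.11 and 28.1 near the end of Ankrd29 lay under a single KO peak of 1218 bp at percentile 66.9.

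The chromosome around Lama3 showed the same direction. On chromosome 18, 71.7% of 2362 pairs were wider in KO, and in the 1 Mb on either side of the Lama3 window 59 of 78 were. In that surrounding region the KO list held 113 peaks against 92 WT peaks. The widening was smaller there, with a median ratio of 1.10 in the 1 Mb on either side and 1.12 on the chromosome, against 1.43 in the Lama3 window and 1.76 inside the gene. The difference between the gene and its region was not tested.

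Lama1 had few peaks. It encodes the alpha1 chain, best known from the early embryo, and spans chromosome 17 from 67697127 to 67822645. The window held 8 WT peaks and 4 KO peaks, and inside the gene there was 1 WT peak and 0 KO peaks. All 4 WT-only peaks were at percentiles of 10.5 to 42.6. The peak inside the gene ran from 67779877 to 67780051 at percentile 16.7. Of the others, 1 lay 10393 bp below the low-coordinate end and 2 lay at or near the neighbouring gene Arhgap28. The strongest pair, inside Arhgap28, was at percentiles 64.9 in WT and 64.8 in KO. Lama1 itself therefore held no shared peak in these lists.

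Lama5 had the strongest peaks of the alpha chain windows, but these lay at its neighbours. It encodes the alpha5 chain, which is widespread in the basement membranes of epithelia and vessels, and spans chromosome 2 from 180176373 to 180225904. There were 15 peaks in each list, with 4 WT-only and 5 KO-only peaks. The strongest, at percentile 98.1 in both lists, had its summit 169 bp from an end of the ribosomal protein gene Rps21. Inside Lama5, 4 KO-only peaks were called between 180212334 and 180223634, at percentiles of 3.34 to 40.4, in the part of the gene towards its start at 180225859. The strongest of them lay from 180223289 to 180223634, 2360 bp from the high-coordinate end. Shared peaks inside the gene went both ways: a pair with its WT summit at 180184901 was 529 bp wide at percentile 49.6 in WT and 173 bp at 8.38 in KO, and a pair at 180216119 was 658 bp at 56.1 in WT and 917 bp at 69.4 in KO. Inside the gene 1 WT-only peak was found, from 180208025 to 180208227 at percentile 14.0. The excess of 1 KO-only peak was not stable to the settings, being 4 where only peaks nearest to Lama5 counted and -2 with 100 kb on either side.

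Lamb1, the gene of the beta1 chain of most laminins, kept an open start in both lists. It spans chromosome 12 from 31265146 to 31329644, and the window held 10 WT and 12 KO peaks. The WT peak over the start printed above ran from 31264504 to 31267089, a width of 2586 bp, at percentile 87.4. In KO it was matched by 2 separate peaks at percentiles 76.3 and 2.65. The strongest peak of the gene lay 6470 bp inside it in WT, at percentile 89.3, and 6464 bp inside it in KO, at percentile 90.3. Of 8 pairs, 7 were wider in WT and 1 in KO, while 47% of all such pairs of the lists were wider in KO. On chromosome 12, 42.1% of 2709 pairs were wider in KO, and in the 1 Mb on either side of the window 22 of 53 were. Inside the gene, the pair with its WT summit at 31292533 was 473 bp wide at percentile 63.6 in WT and 242 bp at 31.6 in KO. In the flank beyond the metabolic enzyme gene Dld, a pair at 31376501 was 465 bp wide at percentile 52.7 in WT and 145 bp at 3.36 in KO. The 3 genotype-only peaks, 1 WT-only and 2 KO-only, were at percentiles of 0.736, 9.42 and 11.1.

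Lamb2, which encodes the beta2 chain of nerve-muscle synapses and kidney filters, had nearly the same peaks in both lists. It spans only 10684 bp on chromosome 9, from 108479847 to 108490530. Its window held 9 WT and 10 KO peaks, of which 8 in each list were shared. Peaks covered both gene ends, and the Lamb2 window had the highest median percentile of the 9 in both lists, at 82.7 in WT and 78.7 in KO. That over the start printed above was at percentiles 96.4 in WT and 96.1 in KO, with widths of 2522 and 1926 bp. That at the other end was at percentiles 97.4 and 97.8, with widths of 2709 and 2699 bp, and its summit lay in the deubiquitinase gene Usp19, 77 bp away. Of the summits, 0 of 9 in WT and 1 of 10 in KO lay inside Lamb2 itself. Apart from the peak over the start, the shared peaks lay in or beside the neighbours Klhdc8b, Ccdc71, Usp19, Qars and Qrich1. The genotype-only peaks, 1 WT-only and 2 KO-only, were at percentiles of 3.95, 10.5 and 1.64.

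Lamb3 had KO-only peaks and no WT-only peak. It encodes the beta3 chain, the partner of the alpha3 chain in the epidermal laminin, and spans chromosome 1 from 193294353 to 193343878. The window held 7 WT peaks, all shared, and 14 KO peaks, of which 7 were KO-only. Of the 19550 genes, 147 (0.752%) had an excess of KO-only peaks this large or larger. All 7 were weak, with percentiles of 3.38 to 34.5, and 4 lay inside the gene between 193319840 and 193342490. The other 3 lay inside the neighbours Hsd11b1, a glucocorticoid-activating enzyme gene, and Camk1g, a calmodulin-dependent kinase gene. The strongest of the 7 was in Camk1g, from 193351632 to 193352024.

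The strongest peak inside Lamb3 was shared. Its summit lay 4055 bp inside the low-coordinate end in WT and 4017 bp inside it in KO. In the direction of the gene, this summit lay before both transcription starts of the promoter table. The nearer start was 3586 bp away in WT and 3624 bp away in KO. The peak was 530 bp wide at percentile 58.9 in WT and 898 bp wide at percentile 77.2 in KO. The other shared peak inside the gene was weak in both, at percentiles 24.8 and 28.8. Of the 7 pairs of the window, 5 were wider in KO, with a median ratio of 1.15. In the 1 Mb on either side, 42 of 71 pairs were wider in KO. The excess at Lamb3 was 4 peaks where only those nearest to the gene counted, 2 with a summit −log10 p of at least 8, and 0 in the upper 50% by signal.

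Lamc1, the gene of the gamma1 chain of most laminins outside the epidermis, had narrower shared peaks in KO. It spans chromosome 1 from 153218922 to 153332786, and the window held 15 WT and 13 KO peaks. Only 2 were genotype-only, both WT-only, at percentiles of 15.4 and 16.6. Of 13 pairs, 10 were wider in WT, with a median KO to WT ratio of 0.78, and inside the gene 5 of 6 were. A pair with its WT summit at 153308747 was 1206 bp wide at percentile 71.7 in WT and 527 bp wide at percentile 44.2 in KO. Another at 153292384 was 813 bp wide in WT and 292 bp in KO. The peak at the high-coordinate end was the strongest of the window in both lists, at percentile 96.2 with 2659 bp in WT and 94.6 with 2436 bp in KO, and its summit was at 153333825 in both. In the 1 Mb on either side of the window, 38 of 96 pairs were wider in KO, against 47% of all such pairs of the lists.

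**Figure D3:**
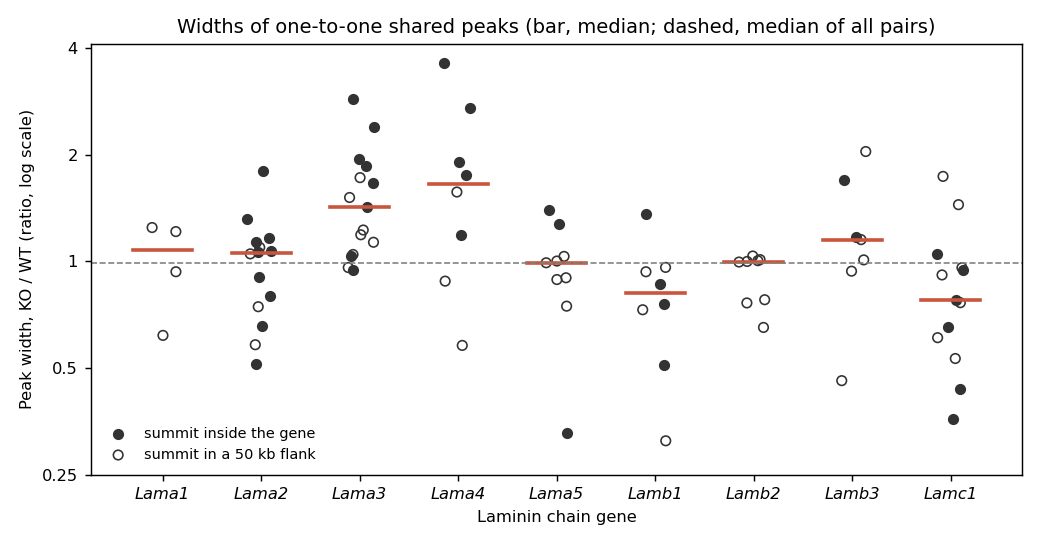
Ratio of KO to WT peak width on a log scale (vertical axis) for the shared pairs in which each peak had a single partner, by laminin chain gene; filled points have their summit inside the gene and open points in a 50 kb flank, red bars are medians and the dashed line is the median of all pairs of the lists. The medians were 1.66 at Lama4, 1.43 at Lama3 and 0.78 at Lamc1.

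Over all 9 windows there were 86 such pairs, and 45 of them were wider in KO and 40 in WT, with a median ratio of 1.01. The median over the whole lists was 0.99. Width depends on where the peak caller ends a peak, and so on read depth, which is unknown. The median distance between the WT and KO summit of a pair was 10.5 bp at the laminin genes and 11 bp in the whole lists, and 72 of the 86 pairs lay within 50 bp, or 83.7% against 79.6%. The largest shifts were 1688 bp in a broad peak of the Lama5 window inside Cables2, 901 bp in the peak over the Lamb2 start and 333 bp in a peak inside Lamc1.

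The surroundings of each gene were set beside its own window. At Lama4 the KO list had 237.5% of the WT peak number in the window, 103.2% in the next 50 kb to 1 Mb on either side, and 90.8% in its 10 Mb block. At Lama2 these values were 56.7%, 80.3% and 93.1%. For Lamb3 they were 200%, 116.3% and 110.8%, and for Lama1 50%, 102.9% and 88.0%. Lama3, Lama5, Lamb1, Lamb2 and Lamc1 lay between 86.7% and 120% in their windows. In the surroundings of Lama2, 25 of 76 WT peaks were WT-only and 8 of 61 KO peaks KO-only, beside 20.4% and 13.4% of the whole lists. Around Lama4, 12 WT-only and 11 KO-only peaks were called, and around Lamb3 7 and 22. Whether the region contributes to the values of a single gene was not tested.

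**Figure D4:**
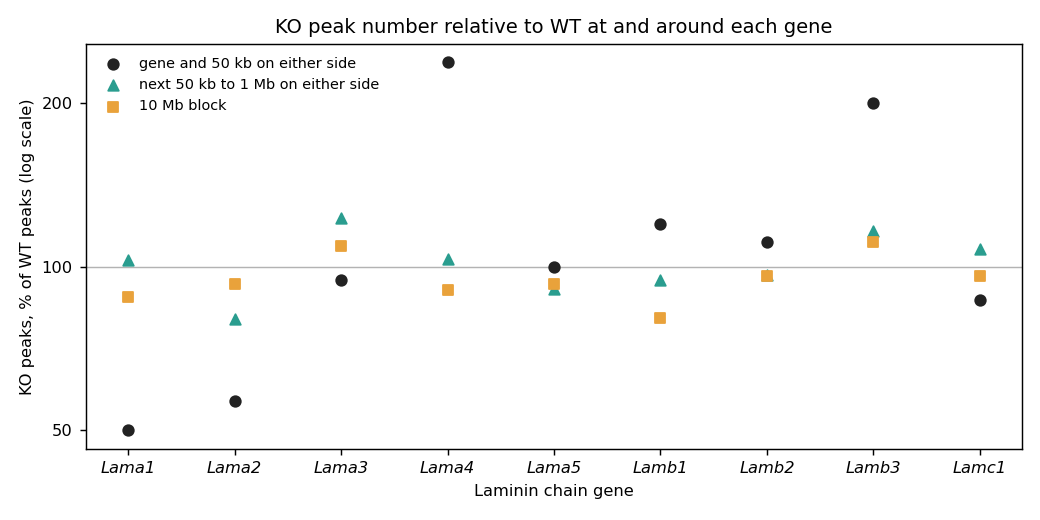
Number of KO peaks as a percentage of WT peaks on a log scale (vertical axis) for each laminin chain gene: in the gene with 50 kb on either side (circles), in the next 50 kb to 1 Mb (triangles) and in the 10 Mb block that holds it (squares). At Lama4 the window stood at 237.5% while its surroundings stood at 103.2% and 90.8%.

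Other genes of the laminin network did not share a direction. Of 26 listed genes, 7 had an excess of KO-only peaks, 13 an excess of WT-only peaks and 6 neither, with a median difference of -0.5. Over all genes the median was -1 and the shares were 25.7%, 52.2% and 22.1%, so the list was close to the background. Lamc3, a further gamma chain gene, had 2 KO-only and 0 WT-only peaks. The windows of the adjoining collagen genes Col4a1 and Col4a2 have peaks in common.

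Among 8 basement membrane partners, KO-only peaks were in excess at 2 and WT-only peaks at 4. Ntn4, a netrin that binds laminin short arms, had 5 KO-only and 1 WT-only peak, and Agrn, the gene of agrin, which links laminin to dystroglycan, had 0 against 4. Among 8 laminin receptor genes, the excess was of KO-only peaks at 2 and of WT-only peaks at 5. Itgb4, the beta chain of the hemidesmosome integrin, had 4 KO-only against 1 WT-only peak, while Itgb1, the common beta chain of most laminin-binding integrins, and the tetraspanin gene Cd151 had 0 against 5 each. Among 5 genes for the sugar chain of dystroglycan, genotype-only peaks were few, with 1 KO-only and 2 WT-only peaks in all. In the dystrophin complex, Sgcd, the delta-sarcoglycan gene, had 1 against 9. A gene-end peak was called in both lists for 21 of the 26 genes and in neither for 3, beside 56.1% and 40.2% of all protein-coding genes. Nid2, the basement membrane linker nidogen-2, had one only in WT, at percentile 29.1, and Itgb4 only in KO, at percentile 2.78.

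**Figure D5:**
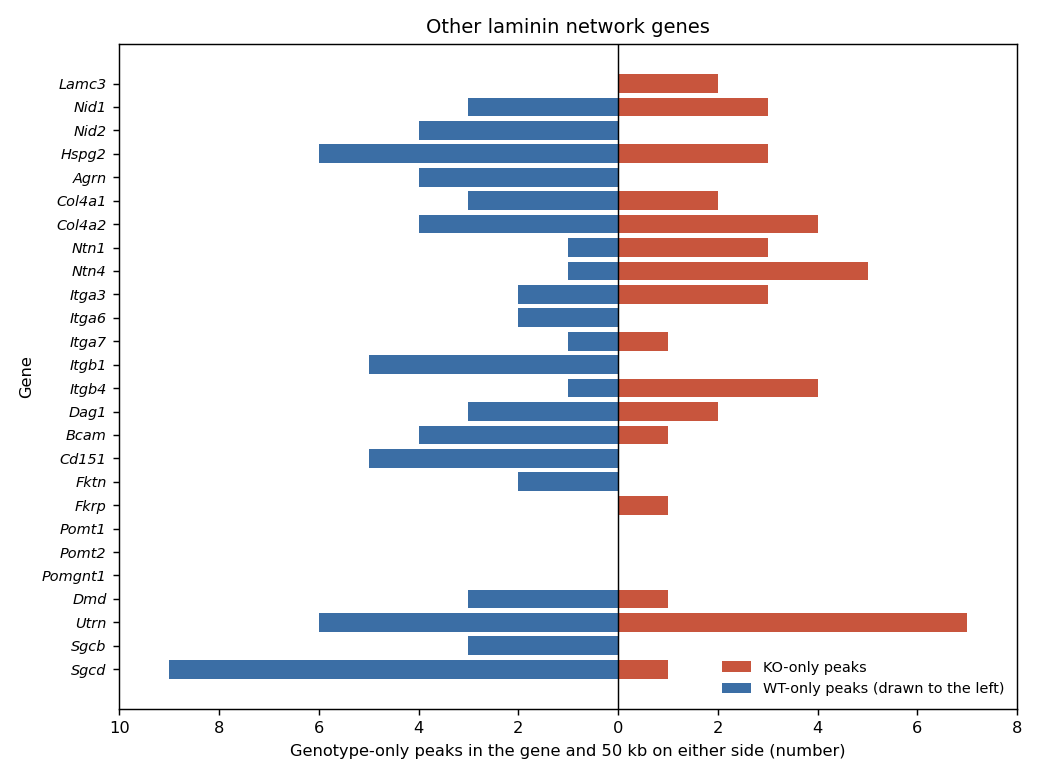
Number of KO-only peaks (red, to the right) and WT-only peaks (blue, to the left) in each gene of the laminin network list with 50 kb on either side. Sgcd had the longest WT-only bar, with 9 peaks, and Utrn the longest KO-only bar, with 7.

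Marker genes were looked at for the cell type on the labels. Gene-end peaks were present in both lists at 11 of 12 dermal fibroblast markers, and at Lum in neither, beside the 56.1% of all genes with such a peak in both lists. Of these end peaks, those of Col1a2, Pdgfrb and Vim ranked higher in KO and the others lower. The Prrx1 end peak was at percentile 84.3 in WT and 1.38 in KO, and that of Col1a2 at 89.7 and 99.0. For keratinocytes, which make the chains of Lama3 and Lamb3, 2 of 8 markers had such a peak in both lists (Krt14 and Krt10), 1 in KO only and 5 in neither, with 0 peaks around Krt1 in both lists. Of 6 endothelial markers, from cells in which Lama4 is prominent, 2 had a gene-end peak in each list and 4 in neither. Leukocyte markers had one in both lists at 2 of 6, Schwann cell and melanocyte markers at 3 of 5 and muscle markers at 0 of 5. Genotype-only peaks in the marker windows numbered 33 WT-only and 36 KO-only for fibroblasts, 15 and 7 for keratinocytes, 13 and 5 for endothelium, 10 and 12 for leukocytes, 0 and 7 for Schwann cells and melanocytes, and 9 and 1 for muscle. The Schwann cell and melanocyte markers thus had the same direction as Lama4 and Lamb3, with a KO-only excess at 4 of 5 genes. Of all 42 markers, 14 had a KO-only and 21 a WT-only excess, against 25.7% and 52.2% of all genes. In the whole lists, 20.4% of WT and 13.4% of KO peaks were genotype-only, and such shares are not given for the marker windows. The windows of Pdgfrb and Csf1r overlap, as do those of Dcn and Lum, so a peak can count more than once. An open gene end does not measure expression, and the part of other cells in the values at Lama4 and Lamb3 was not tested.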

How the data were processed

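ATAC-seq was made from 6 libraries, 3 per genotype, and analysed as 1 peak list per genotype. Per the submitters' processing notes, Bowtie2 2.5.1, Genrich, deepTools 3.5.1 and build GRCm38 were used. Their settings, a Tn5 shift and the joining of the libraries are not given in the sources used here. For each peak, the authors deposited a score, which was not used, a signal with no stated scaling between lists, the −log10 of the summit p, and the summit offset. The signal served only as a percentile within its list. Read totals were not used here, so no interval for depth can be given.

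Peaks were taken by summit, and genes from RefSeq GRCm38.p6. Sharing, gene-end peaks, runs, widths of pairs and promoter motifs were computed with pandas 2.3.3 and numpy 2.4.6 under Python 3.11.15. The overlap code was tested on simulated data, where it returned all 21180 removed and 3000 added peaks, and against bedtools 2.31.1. Alternatives were other overlaps, thresholds, list lengths, flanks, nearest genes, merged regions and leaving out Lama4. The thresholds at a summit −log10 p of at least 8, and leaving out Lama2 or Lamb3, were added after seeing the data. All members were named, with their strongest peaks, their strongest genotype-only peaks, and up to 4 network genes per direction with an excess of at least 3 peaks. Lamc3, Nid2, Utrn and the single shared pairs were chosen after their values were seen. The members and lists were chosen with earlier results of these data known. Some listed genes are not reported here and were left out of the counts.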

Additional observations from a re-analysis of the deposited data

How the results depend on the processing

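The 9 windows held 25 WT-only and 29 KO-only peaks, and these numbers moved with several settings. With a reciprocal overlap of 50%, WT-only peaks numbered 42 (35.0% of WT peaks) and KO-only peaks 43 (35.5% of KO peaks). With a summit −log10 p of at least 8, 15 WT-only and 16 KO-only peaks were left. In the upper 50% by signal they were 0 (0%) and 4 (6.67%), against 3.49% and 2.41% in the whole lists. Equal list lengths gave 14 WT-only (16.7%) and 21 KO-only peaks (23.6%). No flank gave 16 (27.1%) and 20 (31.7%). The 20.4% and 13.4% of the whole lists are for an overlap of 1 bp in the full lists. Whole-list shares are not given here for the reciprocal overlap, the threshold of 8 or equal list lengths. Leaving out Lama4 gave 18 KO-only peaks, and leaving out Lama2 gave 13 WT-only peaks.

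The excess of KO-only peaks at Lama4 kept its sign in 11 of 11 alternatives, from 4 to 13 peaks, and that at Lamb3 in 10, with 0 in the upper 50% by signal. The WT-only excess at Lama2 and Lama1 kept its sign in 10 of 11 each, with 0 in the upper 50%. Lama5 turned to -1 at a summit −log10 p of at least 8 and to -2 with 100 kb flanks, where Lamc1 turned to 1; the cause was not tested. At Lamb1 the excess of 1 KO-only peak kept its sign in 8 of 11 alternatives and was 0 in 3. At Lamb2 it kept its sign in 7 and was 0 in 4. Lama3, with a difference of 0 in the main setting, ranged from -1 to 3 and was 0 in 4 of 11 alternatives. A threshold of 5 removed almost no peak, and neither it nor merged regions changed the difference of any member. All alternatives reused the same lists, so they are not independent checks. No paired analysis was possible because each genotype has 1 list made over its libraries, and for the same reason no library could be left out.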
